A study of Mus musculus with 8 samples.

Results

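The clustered protocadherins are cell-surface adhesion proteins encoded side by side on mouse chromosome 18, in 3 neighbouring groups called alpha, beta and gamma. The 38 genes described here are all rows of the deposited gene tables on chromosome 18 whose symbol is Pcdha, Pcdhac, Pcdhb, Pcdhga, Pcdhgb or Pcdhgc followed by a number, of 21352 genes in the tables. They comprise 7 alpha, 22 beta and 9 gamma genes. Pcdha11, listed by the tables at a pair of positions, was not counted among them, and 19 further clustered genes of the RefSeq annotation of GRCm38.p6 have no row and were not analysed here.

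Each alpha and gamma gene of this family has a variable exon with a promoter of its own, which is spliced to constant exons shared by all genes of the cluster, whereas each beta gene is a single exon with no shared constant part. In neurons, single cells express different combinations of these genes, and matching between the proteins on touching membranes lets a neuron tell its own branches from those of others. The choice of promoter in neurons is known to involve the insulator protein CTCF, cohesin, DNA methylation and the silencing protein Smchd1. Primordial germ cells, the embryonic precursors of eggs and sperm, erase most of their DNA methylation around the stages studied. H3K27me3 is a methylation of histone H3 laid down by Polycomb repressive complex 2, typically over promoters of silent developmental genes.

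The chromatin of sorted primordial germ cells was profiled by low-input CUT&RUN, in which an antibody directs a nuclease to its target in nuclei and the released DNA is sequenced. All cells came from pooled embryos of 1 sex and of the B6 x Cast hybrid background, and all groups carried 1 copy of an Oct4-eGFP reporter and a knockout allele of Xist, the RNA that silences an X chromosome. H3K27me3 was profiled in Xist KO/+ females of stages E11.5 and E12.5. The control antibody IgG was used on Xist KO/Y males of stage E11.5 and on Xist KO/+ females of stages E12.5 and E13.5. Each group had 1 library with a file, and 3 further H3K27me3 samples that the labels call Rep2 were not analysed here. The spread between replicates is therefore unknown, conditions are compared without a p-value, and every interval below covers counting error in the named libraries only. The E11.5 control differs from the E11.5 H3K27me3 library in sex as well as in antibody, and these cannot be told apart. The labels do not name the sorting gate, and no RNA was measured, so the labelled cell type could not be checked against expressed markers.

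Each table gives whole-number reads on the first and the second allele of a gene, that is, only reads that could be assigned to 1 of the parental genomes. Reads assigned to chromosomes 1 to 19 numbered 2356356 and 5020062 for H3K27me3 at E11.5 and E12.5, and 1357583, 1515532 and 5705401 for IgG at E11.5, E12.5 and E13.5. The 38 genes together held 2726 and 5583 of these reads with H3K27me3 and 257, 346 and 1069 of them with IgG. Levels are given below as RPM, the reads of a gene per 1000000 autosomal reads of its library, and a ratio between libraries as a fold of these levels or as log2 with 1 RPM added to each level. As a check of the antibody, all 32 testable Hox genes, textbook Polycomb targets, were at least 2-fold above IgG at E12.5 (median log2 ratio 2.83), as were all 29 at E11.5 (median 3.07), against 0 of 10 and 0 of 6 housekeeping genes (medians -1.12 and -1.01).

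Reads were listed for 24 of the 38 genes: Pcdha1, all of Pcdhb1 to Pcdhb22, and Pcdhga3. The other 14 were at 0 in all 5 libraries, H3K27me3 and IgG alike. These were the 6 remaining alpha genes, among them the C-type genes Pcdhac1 and Pcdhac2, and the 8 remaining gamma genes, among them the C-type genes Pcdhgc3, Pcdhgc4 and Pcdhgc5. By RefSeq spans these genes lie inside other listed genes, and of the 14 only Pcdhac2 has any stretch outside them, of 2 bases. Over the whole table, 308 of 379 genes covered whole by other listed genes were at 0 in all libraries (81.3%), against 904 of 20704 genes with a stretch of their own (4.37%). A value of 0 for these 14 genes was therefore not read as an absence of the mark. In the same way, the reads listed for Pcdha1 and Pcdhga3 were taken to come from the stretches that no other listed gene covers, which measure 8920 and 51371 bases, although their listed lengths are 257478 and 167567 bases. In the IgG library at E13.5, Pcdha1 had 1.47 and Pcdhga3 had 1.31 RPM per kilobase of this own stretch, near the 1.08 of the median autosomal gene, whereas per kilobase of listed length they had 0.0511 and 0.403. The stretch counted for Pcdhga3 holds the starts of 8 RefSeq gamma genes: Pcdhga3, Pcdhgb1, Pcdhga4, Pcdhgb2, Pcdhga5, Pcdhga6, Pcdhga7 and Pcdhgb4. Accordingly, alpha is represented below by the first 8.92 kb from the start of Pcdha1, gamma by the Pcdhga3 stretch, and beta by 22 separate genes.

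H3K27me3 lay above IgG over the measured stretches of all 3 clusters at both stages. Pcdha1, the first gene of the alpha cluster, had 45.4 RPM at E11.5 and 44.2 RPM at E12.5 with H3K27me3 (107 and 222 reads), and 14.7, 11.2 and 13.1 RPM in IgG at E11.5, E12.5 and E13.5 (20, 17 and 75 reads). Both H3K27me3 levels were above all 3 IgG levels. Pcdhga3, which stands here for the upstream part of the gamma cluster, had 440.5 and 430.1 RPM with H3K27me3 (1038 and 2159 reads), and 50.1, 69.3 and 67.5 RPM in IgG (68, 105 and 385 reads). For this gene as well, no IgG level reached either H3K27me3 level. The 22 beta genes, each coding for a complete protocadherin in 1 exon, summed to 1581 and 3202 reads with H3K27me3 and to 169, 224 and 609 reads in IgG. Single beta genes ranged from 9.76 to 51.8 RPM at E11.5 (median 30.8) and from 9.76 to 56.0 RPM at E12.5 (median 29.8) with H3K27me3, with Pcdhb9 the lowest and Pcdhb19 the highest at both stages. In IgG they ranged from 2.21 to 8.84 RPM at E11.5 (median 5.89), from 2.64 to 13.9 RPM at E12.5 (median 6.93) and from 1.58 to 10.7 RPM at E13.5 (median 4.64). The ranges over genes overlapped, but within each of the 24 genes with reads both H3K27me3 levels exceeded all 3 IgG levels. This holds for 23.9% of the autosomal genes compared in the same way.

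**Figure D1:**
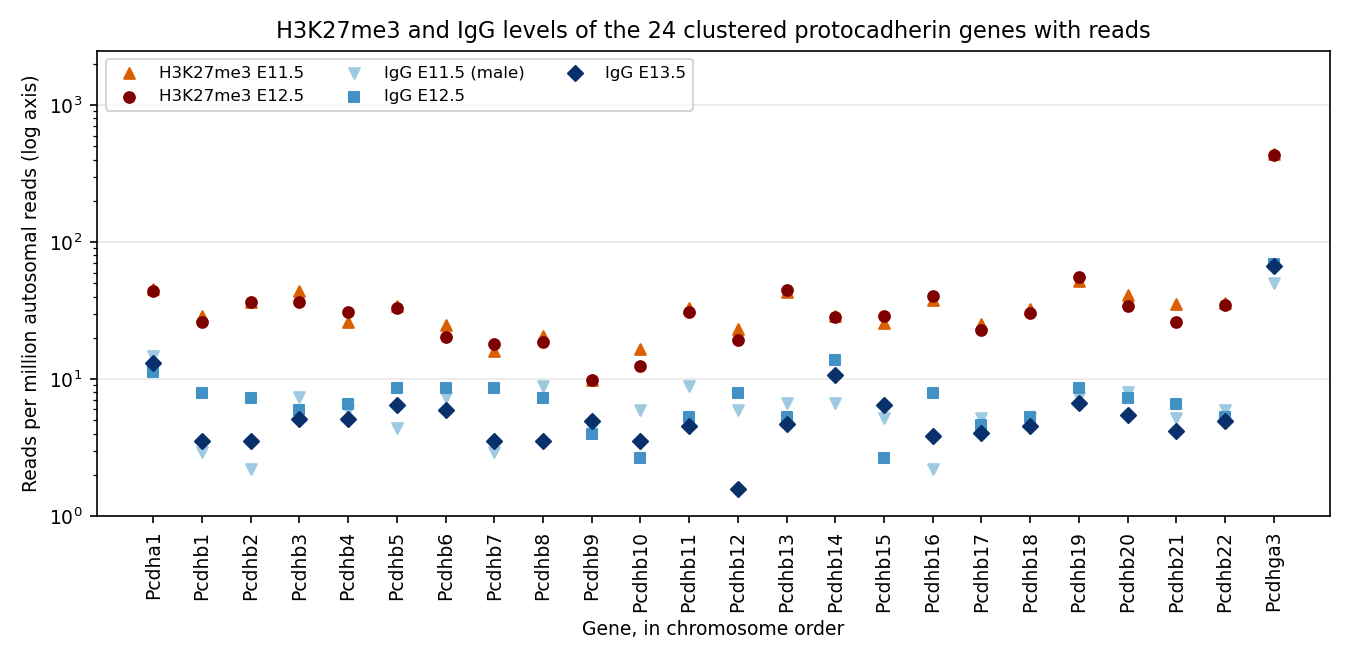
Level of each measured clustered protocadherin in RPM of the 5 libraries, on a log axis, with 1 point per gene and library. Within every gene both H3K27me3 points lie above the 3 IgG points, and Pcdhga3, with the longest counted stretch, has the highest level.

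A gene entered a ratio when both libraries together held at least 20 reads on it, which all 24 genes with reads did. At E12.5, 22 of the 24 were at least 2-fold above IgG of the same stage and sex, against 15.2% of all 16526 autosomal genes tested. The other 2, Pcdhb14 and Pcdhb7, were both at a log2 ratio of 0.98, just under the limit. At E11.5, 23 of the 24 were at least 2-fold above IgG, against 17.2% of 15050 genes, with Pcdhb9 just outside at 0.99. The median log2 ratio of the 24 was 2.08 at E12.5 and 2.16 at E11.5, beside -0.54 and -0.49 over all autosomal genes tested. With the deeper IgG library from E13.5 as control, 23 of 24 were at least 2-fold higher at each stage (15.9% and 16.8% of all genes), and Pcdhb9 was the exception in both, at 0.87. The sign of the typical gene depends on the scaling: at E12.5, 2511 autosomal genes were at least 2-fold higher and 4881 lower than IgG, and 4221 higher and 778 lower once the median gene was set to a ratio of 1. At E11.5 the corresponding split was 2591 against 4466, and 3734 against 1110. All 24 clustered genes were at least 2-fold higher under that scaling at both stages.

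Pooled over its genes, the beta cluster was 4.32-fold above IgG at E12.5 (95% interval 3.77 to 4.96) and 5.39-fold at E11.5 (4.60 to 6.35). Pcdha1 was 3.94-fold (2.41 to 6.89) and 3.08-fold (1.90 to 5.25) above, and Pcdhga3 was 6.21-fold (5.10 to 7.62) and 8.79-fold (6.88 to 11.4) above. Pcdhga3 thus exceeded beta by a factor of 1.44 at E12.5 (1.13 to 1.84) and 1.63 at E11.5 (1.21 to 2.22) against the IgG library of the same stage. Against the E13.5 control this factor was 1.07 (0.926 to 1.23) and 1.04 (0.892 to 1.21), so the 2 clusters could not be told apart. The beta genes themselves differed between the IgG libraries, being 1.38-fold higher in IgG at E12.5 than at E13.5 (1.18 to 1.62), whereas Pcdhga3 was at 1.03-fold (0.819 to 1.28). Pcdha1 stood below beta with 3 of the 4 pairings of libraries, which share libraries and are not independent. Its fold divided by that of beta was 0.572 at E11.5 against the same stage (0.342 to 1.0), and 0.550 (0.399 to 0.760) at E11.5 and 0.563 (0.425 to 0.752) at E12.5 against the E13.5 control. At E12.5 against its own stage this quotient was 0.914 (0.545 to 1.63), from 17 IgG reads. The Pcdha1 and Pcdhga3 stretches run on to the next listed gene, whereas each beta gene is a single exon. A difference between clusters cannot be told apart from this difference in the regions counted.

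Per kilobase, the 3 clusters carried several times the H3K27me3 of a typical gene. Per kilobase of own stretch, Pcdha1 had 5.09 and 4.96 RPM and Pcdhga3 had 8.58 and 8.37 RPM at E11.5 and E12.5, where the autosomal median was 0.724 and 0.728. Beta genes had a median of 7.24 and 6.66 RPM per kilobase of listed length, against 0.680 and 0.691 for all autosomal genes. In IgG the beta medians were 1.35, 1.54 and 1.23 RPM per kilobase of listed length at E11.5, E12.5 and E13.5, against 1.04, 1.07 and 1.04 for all autosomal genes, so the beta cluster lay slightly above the typical gene there too.

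The beta genes did not carry equal amounts. Pcdhb2, next to Pcdhb1 at the alpha-facing end of the cluster, had the highest H3K27me3 per kilobase at both stages (13 RPM each), and Pcdhb9 had the lowest (3.20 RPM each). Both held their places per kilobase of the RefSeq stretch at both stages. The rank of Pcdhb14 depended on the length used: over its listed 8.70 kb it had 3.32 RPM per kilobase at E11.5 and 3.25 at E12.5, next to the bottom, but over its RefSeq stretch of 3.44 kb it had 8.39 and 8.23, near the middle. Its IgG level at E13.5 was 1.23 RPM per kilobase over the listed length and 3.11 over the RefSeq stretch, where the beta medians were 1.23 and 1.39. In the middle of the array, Pcdhb6 to Pcdhb10 formed a run of 5 neighbours with less mark than most others; this run was picked after its values were seen and is described without a test. Pooled, it had 5.28 RPM per kilobase at E11.5 and 4.74 at E12.5, beside 7.67 and 7.35 for the other 17 beta genes. Over RefSeq stretches the run had 5.73 and 5.15, beside 9.67 and 9.27. In IgG the run and the others were closer: per kilobase of listed length the run had 1.77, 1.86 and 1.28 RPM at E11.5, E12.5 and E13.5, beside 1.25, 1.54 and 1.12 for the others, and over RefSeq stretches 1.92, 2.02 and 1.40, beside 1.58, 1.94 and 1.42. Its pooled fold over IgG of the same stage was 2.54 at E12.5 (1.88 to 3.52), beside 4.79 (4.11 to 5.60) for the other 17. At E11.5 it was 2.98 (2.12 to 4.29), beside 6.14 (5.12 to 7.41). Against the E13.5 control the run was at 3.69-fold and 4.11-fold at E12.5 and E11.5, beside 6.55-fold and 6.83-fold. Beta genes are similar in sequence, and how reads that match several of them were assigned is not given in the sources used here; its part in these differences was not tested.

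**Figure D2:**
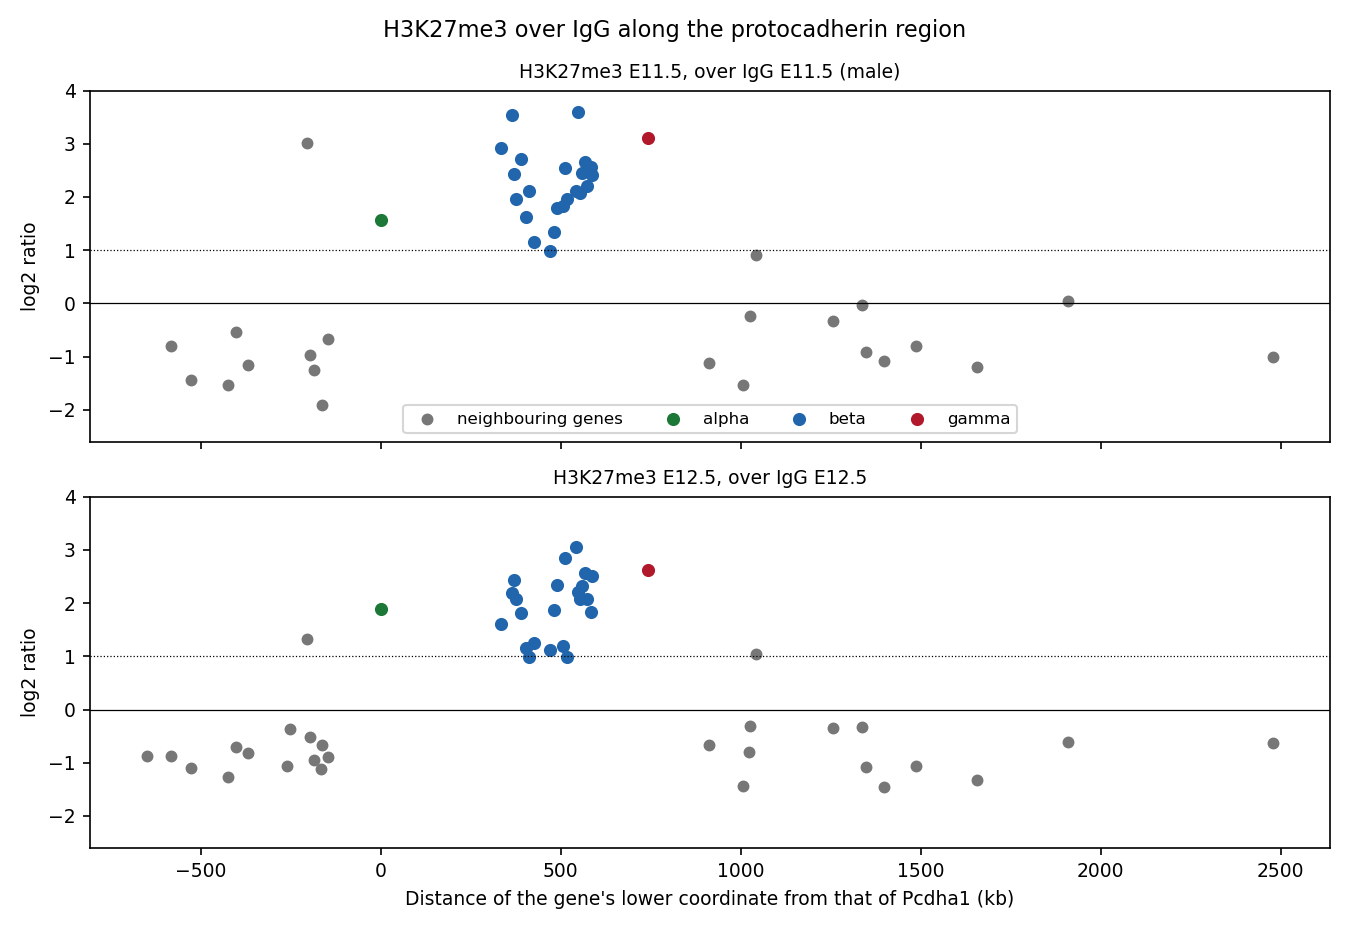
Log2 ratio of H3K27me3 over IgG of the same stage along the protocadherin region and its neighbours, at E12.5 and E11.5, against distance in kilobases from the start of Pcdha1. The measured alpha, beta and gamma genes lie above the 2-fold limit or just under it. Pooled, Pcdhb6 to Pcdhb10 are lower than the other beta genes, but single values overlap. At E12.5 Pcdhb14, outside that run, is the lowest (0.98), and Pcdhb10, inside it, is at 1.88. Most flanking genes lie below 0, as does the median autosomal gene under this scaling.

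Single beta genes rested on few control reads, and their order by fold changed with the control. Ranked by the log2 ratio with 1 RPM added, the highest at E12.5 were Pcdhb15, Pcdhb13 and Pcdhb19; by the plain fold, Pcdhb22 (6.60-fold, 3.28 to 15.5) came just before Pcdhb19. Pcdhb15 had 29.1 RPM with H3K27me3 and 2.64 RPM in IgG of that stage (146 and 4 reads), an 11-fold difference with a wide interval of 4.21 to 41.0. Against the E13.5 control, where it had 37 reads, it was only 4.48-fold higher (3.11 to 6.62), and at E11.5 it was 4.94-fold above IgG (2.25 to 12.8). Pcdhb13 was steadier, at 8.42-fold (4.20 to 19.7) and 6.53-fold (3.31 to 14.7) at E12.5 and E11.5 and 9.39-fold (6.28 to 14.6) at E12.5 against the E13.5 control. Pcdhb19 was at 6.53-fold (3.75 to 12.4), 7.03-fold (3.69 to 15.0) and 8.40-fold (5.97 to 12.1) in the same 3 comparisons.

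By the same log2 ratio, the lowest at E12.5 were Pcdhb14, Pcdhb7 and Pcdhb9; by the plain fold, Pcdhb6 (2.37-fold, 1.33 to 4.60) and Pcdhb12 (2.44-fold, 1.34 to 4.89) came before Pcdhb9. Pcdhb14 was 2.04-fold above IgG at E12.5 (1.29 to 3.40), 4.35-fold at E11.5 (2.16 to 9.92) and 2.65-fold at E12.5 against the E13.5 control (1.95 to 3.63). Pcdhb7 was at 2.09-fold (1.16 to 4.08), 5.47-fold (1.97 to 21.1) and 5.11-fold (3.12 to 8.77). Pcdhb9 stayed near 2-fold throughout: it was at 2.47-fold (1.06 to 7.04), 2.21-fold (0.874 to 6.63) and 1.99-fold (1.23 to 3.29), and at 1.99-fold (1.09 to 3.58) at E11.5 against the E13.5 control. Its 23 reads at E11.5 and 49 at E12.5 were the fewest of any beta gene. Pcdhb1, at the upstream end of the cluster, was 3.30-fold (1.82 to 6.54) above IgG at E12.5 and 9.79-fold (3.66 to 37.0) at E11.5, where IgG held 4 reads, and 7.44-fold (4.63 to 12.6) at E12.5 against the E13.5 control. The highest folds at E11.5 were those of Pcdhb16 (17.1-fold, 5.66 to 84.5) and Pcdhb2 (16.5-fold, 5.47 to 81.7), each over 3 IgG reads, and both were named after their values were seen. Against the E13.5 control they were at 9.79-fold (6.09 to 16.4) and 10.4-fold (6.34 to 17.9) at that stage. At E12.5 against the same stage, 20 of the 22 beta intervals held the pooled beta fold, as did 19 of 22 at E11.5. Against the deeper E13.5 control, 15 of 22 did at E12.5 and 17 of 22 at E11.5. Over the 24 measured genes the interval lay above 1 for all in each comparison, except Pcdhb9 at E11.5 against IgG of that stage.

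The clusters held nearly the same share of the H3K27me3 reads at E11.5 and E12.5. Levels are scaled to the autosomal reads of each library, so a change common to all genes would not show. None of the 24 genes was 2-fold higher or lower at E12.5, where 0.756% of all autosomal genes were higher and 0.787% lower. With 1 library a stage there is no test across replicates and no count at an unadjusted p-value to set beside this 0. E12.5 over E11.5 was 0.974 for Pcdha1 (0.770 to 1.24), 0.951 for beta pooled (0.895 to 1.01) and 0.976 for Pcdhga3 (0.906 to 1.05). Single genes ranged from 0.735 for Pcdhb21 (0.554 to 0.980) to 1.20 for Pcdhb4 (0.887 to 1.64), with 7 of 24 above 1. The interval of Pcdhb21 was the only one of the 24 that left out 1. The order of the 22 beta genes by RPM per kilobase was much alike at both stages (Pearson's r 0.936 and Spearman's rho 0.936 across genes, which are not independent replicates and share their listed lengths and the same mapping). Their log2 ratios over IgG of the same stage were less alike (r 0.448, rho 0.406), and each of these also carries the counting error of a shallow control.

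The hybrid background allows the mark to be split by parental allele. The second-allele share is the percentage of a gene's reads on the second allele, and it was computed where a gene had at least 10 reads. The sources used here do not say which parental strain either allele belongs to. The pooled autosomal share was 51.6% and 50.9% in the H3K27me3 libraries at E11.5 and E12.5, and 50.8%, 51.1% and 51.3% in IgG at E11.5, E12.5 and E13.5. Each clustered protocadherin group carried the mark on both alleles. The pooled share of beta was 49.8% at E11.5 (47.3% to 52.3%, exact Clopper-Pearson) and 48.0% at E12.5 (46.3% to 49.8%), where the interval lay below the pooled autosomal share. The IgG shares of beta were 43.8% (36.2% to 51.6%) at E11.5, 52.7% (45.9% to 59.4%) at E12.5 and 48.1% (44.1% to 52.2%) at E13.5. With H3K27me3, Pcdhga3 had 52.1% (49.0% to 55.2%) and 50.7% (48.5% to 52.8%), and Pcdha1 had 47.7% (37.9% to 57.5%) and 51.4% (44.6% to 58.1%). In IgG at E11.5, E12.5 and E13.5, Pcdhga3 had 39.7%, 48.6% and 45.2% (68, 105 and 385 reads). Pcdha1 had 35%, 52.9% and 46.7% there (20, 17 and 75 reads). Taken by allele, beta at E12.5 was 4.74-fold above IgG of that stage on the first allele (3.89 to 5.82) and 3.93-fold on the second (3.26 to 4.79). Pcdhga3 was 5.95-fold (4.53 to 7.98) and 6.48-fold (4.89 to 8.75) above, and Pcdha1 4.08-fold (2.0 to 9.68) and 3.82-fold (1.95 to 8.58). At E11.5 the second allele had the higher fold in each cluster, with overlapping intervals: beta was at 4.82-fold on the first allele (3.89 to 6.02) and 6.13-fold on the second (4.82 to 7.89), Pcdhga3 at 6.98-fold (5.07 to 9.85) and 11.54-fold (7.85 to 17.7), and Pcdha1 at 2.48-fold (1.34 to 4.95) and 4.20-fold (1.90 to 11). These E11.5 folds divide by IgG reads whose second-allele share was 43.8% for beta, 39.7% for Pcdhga3 and 35% for Pcdha1. The H3K27me3 shares at that stage were 49.8%, 52.1% and 47.7%. A higher fold on the second allele at E11.5 therefore also carries the lower second-allele share of the control. The interval of each of these IgG shares held the pooled autosomal 50.8% of that library. The difference between alleles was not tested.

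Few single genes leaned to 1 allele. Each gene was compared with the pooled autosomal share of its own library by an exact two-sided binomial test, with Benjamini-Hochberg adjustment over all autosomal genes. The test compares reads of 1 library and not conditions. At E11.5, 3 of 24 genes passed at 0.05, against 11.7% of all 15332 genes tested, a share near that of the background. Pcdhb8 had 36 of 49 reads on the second allele (73.5%, adjusted p 0.0238), Pcdhb11 had 26 of 78 (33.3%, adjusted p 0.0154) and Pcdhb9 had 5 of 23 (21.7%, adjusted p 0.0479). At E12.5, only Pcdhb20 passed, with 65 of 171 reads (38.0%, adjusted p 0.00616), against 17.5% of 17149 genes. None of the 4 passed at both stages. Pcdhb8 leaned the same way at E12.5 with 60 of 93 reads (64.5%, adjusted p 0.0531) and Pcdhb11 likewise with 64 of 154 (41.6%, adjusted p 0.111), whereas Pcdhb9 was even there (24 of 49 reads, 49.0%, adjusted p 0.990). Pcdhb20 had 43.3% at E11.5 (42 of 97 reads, adjusted p 0.387). A share at least 20 points from the pooled value was held by 2 of 24 genes at E11.5, Pcdhb8 and Pcdhb9, against 9.24% of all genes, and by 0 of 24 at E12.5, against 7.95%.

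The IgG shares of the same genes did not pass in any library: 0 of 8, 0 of 15 and 0 of 23 genes with enough reads were called at E11.5, E12.5 and E13.5, against 3.66%, 3.46% and 7.87% of all genes. At an unadjusted p under 0.05 these counts were 0, 1 and 1, and 4 of 24 in each H3K27me3 library. The IgG genes were Pcdhb12 at E12.5 (83.3%, binomial p 0.0391) and Pcdhga3 at E13.5 (45.2%, binomial p 0.0189). Pcdhb8 had 10 of 20 IgG reads on the second allele at E13.5 (27.2% to 72.8%) and Pcdhb11 had 16 of 26 (61.5%, 40.6% to 79.8%). Pcdhb20 had 13 of 31 (41.9%, 24.5% to 60.9%) and Pcdhb9 had 11 of 28 (39.3%, 21.5% to 59.4%). Intervals from so few reads are wide, so a moderate lean in IgG could go uncalled. Of the other genes, Pcdhb10 (64.1%) and Pcdhb5 (61.7%) had the highest shares after Pcdhb8 at E11.5, and Pcdhb22 (40.5%) the lowest after Pcdhb9 and Pcdhb11. At E12.5 the highest after Pcdhb8 were Pcdhb12 (54.6%) and Pcdhb7 (54.4%), and the lowest after Pcdhb20 were Pcdhb10 (40.3%) and Pcdhb11. Pcdhb10 thus lay among the highest at one stage and among the lowest at the other. The median over the 24 genes was 49.2% at E11.5 and 49.1% at E12.5.

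**Figure D3:**
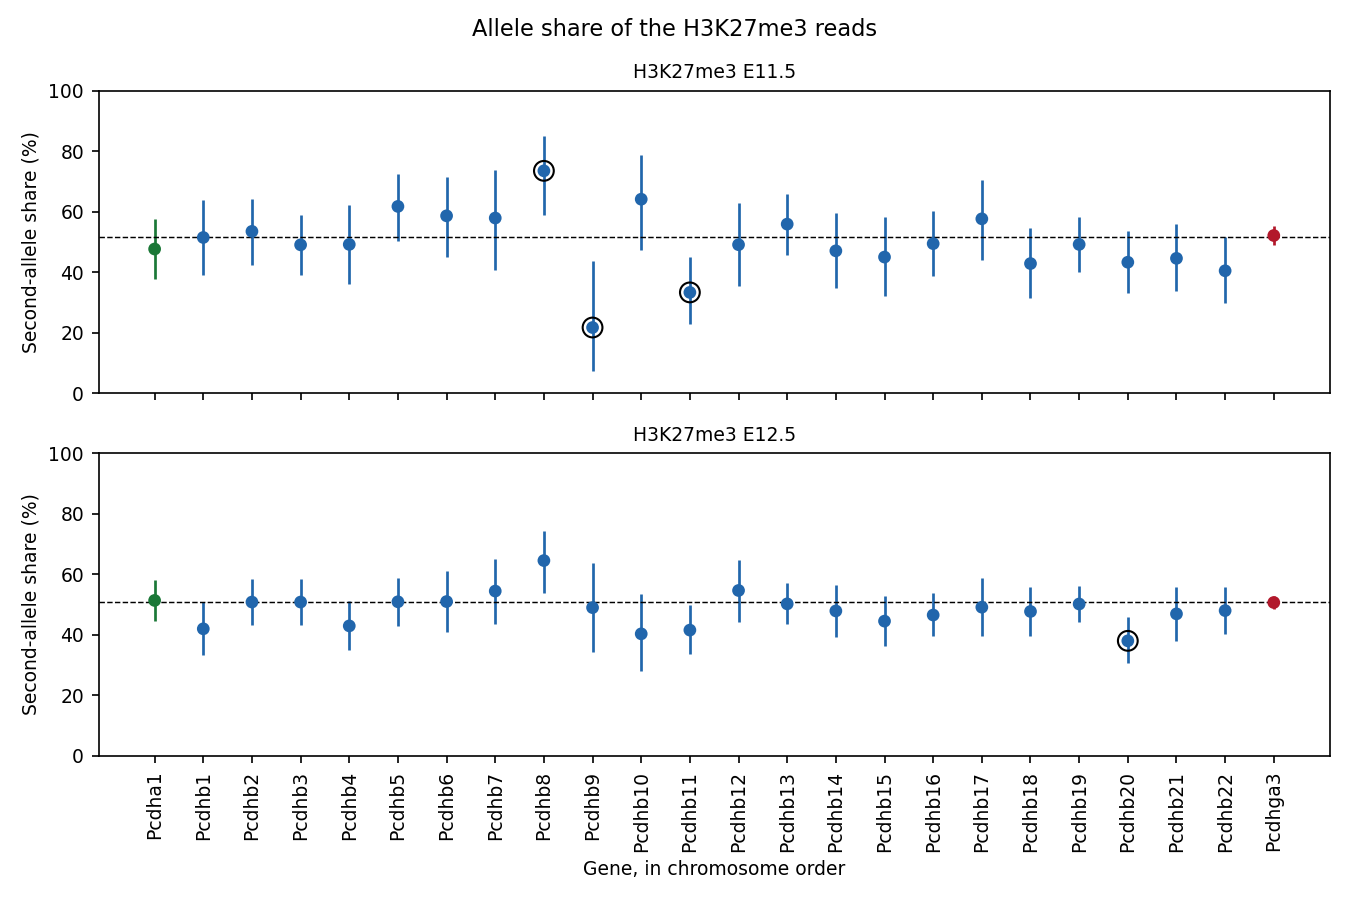
Second-allele share of each measured gene in percent at both stages of H3K27me3, with exact 95% intervals as bars, alpha in green, beta in blue and gamma in red. Rings mark the genes called by the binomial test and the dashed line is the pooled autosomal share of the library; most intervals cross that line.

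The flanking genes had ratios far below those of the clusters. The stretch from the start of Pcdha1 to the end of the gamma cluster lies between Zmat2, 131 kb upstream, and Diaph1, 1.73 kb downstream. Slc25a2 and Taf7 lie between beta and gamma. In GRCm38 the 38 genes span chr18:36930285-37187663 in alpha, chr18:37264998-37521419 in beta and chr18:37674335-37841873 in gamma. Clustered genes with no row were not used to set these spans. Of 27 neighbouring genes tested at E12.5, 2 were at least 2-fold above IgG (median log2 ratio -0.81), and of 22 tested at E11.5, 1 was (median -0.94). Of all autosomal genes 15.2% and 17.2% were, with medians of -0.54 and -0.49, and the sign of such values depends on the scaling as given above. The 2 were Cd14, a receptor for bacterial lipopolysaccharide (2.75-fold, 1.38 to 6.23), and Arap3, a regulator of small GTPases (2.12-fold, 1.47 to 3.16). Cd14 was the one at E11.5 (11.3-fold, 3.69 to 56.5). Diaph1, an actin-nucleating formin whose span lies next to gamma, had 26.3 RPM at both stages with H3K27me3 and 58.2, 42.2 and 55.9 RPM in IgG, and was at 0.623-fold (0.459 to 0.853) at E12.5. Hdac3, a histone deacetylase, was at 0.338-fold (0.206 to 0.559). Dnd1, an RNA-binding protein needed by germ cells, was at 0.369-fold (0.139 to 1.01), from 11 and 9 reads. Between the clusters, Slc25a2 had 12 and 5 reads and Taf7 had 11 and 6 reads with H3K27me3 and IgG at E12.5, under the 20 reads needed for a ratio. Pcdh1 and Pcdh12, protocadherins outside the clusters but further along the same chromosome, were at 0.779-fold (0.567 to 1.08) and 0.794-fold (0.561 to 1.14).

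Other members of the cadherin superfamily were mixed. Of 10 non-clustered autosomal protocadherins, 7 were at least 2-fold above IgG at E12.5 (median log2 ratio 1.55) and 5 at E11.5 (median 0.94). Against the E13.5 control 3 were at each stage (medians 0.67 and 0.58). Pcdh20 was the highest in both comparisons with IgG of the same stage, at 14.8-fold (4.96 to 72.6) at E12.5 and 11.7-fold (4.38 to 43.8) at E11.5. Pcdh10, which acts in axon growth, was at 5.04-fold (3.31 to 8.05) and 2.35-fold (1.65 to 3.41), but at 1.62-fold (1.38 to 1.90) at E12.5 against the E13.5 control. Of 31 classical and related cadherins, 7 were at least 2-fold above IgG at each stage, with medians of 0.23 at E12.5 and -0.15 at E11.5. For all autosomal genes tested the shares were 15.2% at E12.5 and 17.2% at E11.5, with medians of -0.54 and -0.49. Against the E13.5 control these shares were 15.9% and 16.8%, with medians of -0.41 and -0.44. Cdh1, E-cadherin, which germ cells are known to express, was at a log2 ratio of -1.41 at E12.5 and -0.67 at E11.5.

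Genes of the machinery known to act on the clusters in neurons were set beside them. Of 16 tested, 0 were at least 2-fold above IgG at E12.5 (median log2 ratio -0.90) and 1 at E11.5 (median -1.16), where 15.2% and 17.2% of all autosomal genes were and their medians were -0.54 and -0.49. The one at E11.5 was Dnmt3b, a de novo DNA methyltransferase, at 2.82-fold (2.13 to 3.80) at E11.5 and 1.74-fold (1.38 to 2.21) at E12.5. Smchd1 was at a log2 ratio of -1.0 at E12.5 and -1.56 at E11.5, Ctcf at -0.23 and -1.46, and Rad21, a cohesin subunit, at -1.0 and -1.03. Of 16 marker genes of somatic gonad and blood cells, the other cells near the germ cells in the gonad, 11 were at least 2-fold above IgG at each stage (medians 1.63 and 2.14). Among the others were endothelial genes, which went both ways. Pecam1 was at log2 ratios of -1.27 and -1.34 at E12.5 and E11.5, and Cdh5 at -0.48 and -0.17. Kdr was above IgG but under 2-fold, at 0.77 and 0.87. The part of any other cell type in the signal was not tested.

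**Figure D4:**
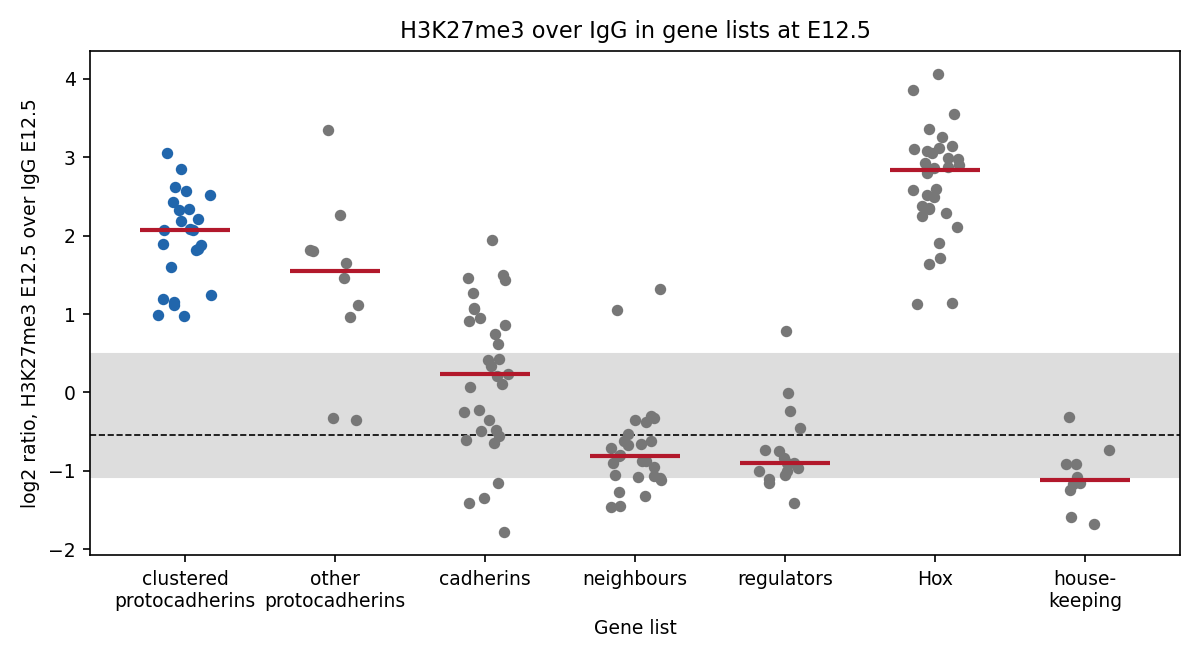
Log2 ratio of H3K27me3 over IgG at E12.5 for the genes of each list, with 1 point per gene and the list median as a red line. The dashed line and grey band are the median and interquartile range of all autosomal genes tested. By median, the clustered protocadherins lie between the Hox genes above and the other protocadherins below. Ratios were taken over the whole counted region of each gene, and differences in its length were not taken into account. Single genes overlap, and Pcdh20 lies above every clustered gene. The neighbouring and regulator genes lie mostly below 0.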

How the data were processed

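CUT&RUN for H3K27me3 and IgG was done on sorted primordial germ cells, and 5 libraries had a gene table. The submitters' processing notes name build mm10, the aligner Bowtie2 2.4.2 and the counter featureCounts, and also GATK, SAMtools 1.11, MACS2 2.2.7.1, deepTools 3.5.1, Trim Galore 0.6.6, cutadapt 4.1, MultiQC 1.13 and FastQC 0.11.9. The sources used here do not give the settings, the handling of duplicate or multiply matching reads, or the way an allele was assigned. The deposited tables hold unnormalised whole-number counts of reads per allele and a gene length. The authors' deposited fraction is the second-allele count over both counts together, and is printed as a percent. Duplicates may remain, so intervals cover counting error only.

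Counts were scaled to reads on chromosomes 1 to 19 (Python 3.11.15, numpy 2.4.6, scipy 1.17.1, pandas 2.3.3, matplotlib 3.10.9). Log2 ratios used a pseudocount of 1 RPM and at least 20 reads in both libraries together. Folds are ratios of RPM with exact conditional binomial 95% intervals. Allele shares needed 10 reads. Scripts were tested on simulated data. Spans came from a RefSeq table of GRCm38.p6 (the assembly behind mm10), which matched 21083 genes; the annotation behind the counts is not given in the sources used here. Excluded were 99 genes on the Y or with a pair of positions.

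The members and lists were chosen with earlier results of these data known. The lists were the non-clustered protocadherins, other cadherins, regulators of the clusters, chromosomal neighbours, Hox genes, housekeeping genes, and somatic gonad and blood markers. Named by rule were, in each cluster, the 3 highest and 3 lowest genes at E12.5 over IgG of that stage, the C-type genes, Pcdhb1, in each H3K27me3 library the 3 highest and 3 lowest shares, and 7 neighbours. Other named genes were chosen after their values were seen. The planned description of promoter sequence was not made, because the table used here holds no promoter of these genes. Other scalings, pseudocounts, read minimums and controls were tried.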

Additional observations from a re-analysis of the deposited data

How the results depend on the processing

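No paired analysis was possible because each group had only 1 library with a file, and for the same reason no replicate could be left out. Of 108 alternative values of the summary results, 91 stayed within the limits set for them, 17 moved and none reversed. The median log2 ratio of beta at E12.5 (2.08) was 2.62 with the median gene set to 1, 1.79 with a pseudocount of 3 RPM and 2.42 with the E13.5 control. That of gamma (2.62) was 3.16 with the median gene set to 1. At E11.5 the beta median (2.16) was 2.65 with the median gene set to 1, 1.90 with a pseudocount of 3 RPM, 2.41 with at least 50 reads, 2.61 with the E13.5 control and 2.45 with all 3 IgG libraries summed. That of gamma (3.11) was 3.60, 2.69 and 2.74 with the median gene set to 1, the E13.5 control and the summed control. Members called by allele share at E11.5 (3) fell to 1 with at least 50 reads. At E12.5 (1) there were 2 with at least 20 reads, 2 with at least 50 reads, 2 against 50%, and 0 at 20 points or more in place of the test. The cause of these moves was not tested. Between 21 and 24 genes were at least 2-fold above IgG at each stage in all settings run. With at least 50 reads at E11.5, Pcdhb7, Pcdhb9 and Pcdhb10 held too few reads to be counted. Of 597 alternative values of single genes, 584 kept their side of the threshold, 10 newly passed it and 3 no longer did. The 3 were all of Pcdhb9 at E12.5, at a log2 ratio of 0.87 with a pseudocount of 3 RPM, 0.87 with the E13.5 control and 0.93 with the summed control. Depth limits the folds of single beta genes, which hold as few as 3 reads in an IgG library.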
